A study of Mus musculus with 10 samples.

Results

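Regions of open chromatin that were more accessible in iNKT1 than in iNKT2 cells in both BALB/c and SKG mice are described here. They were chosen by their own levels: a region was kept when its mean in iNKT1 was at least 4 times its mean in iNKT2 within BALB/c and again within SKG, after 0.5 was added to each mean, and when both iNKT1 means reached 2 CPM (insertions in a region scaled to the library's total, adjusted with TMM factors). The rule kept 2626 of 94823 regions, or 2.77%. The iNKT1 to iNKT2 ratio therefore selected these regions, and its values are given below as a description and not as a test. The libraries came from thymic NKT cells in 4 groups, with 2 libraries each of BALB/c and SKG iNKT1 cells and 3 libraries each of BALB/c and SKG iNKT2 cells. SKG mice are BALB/c mice with a hypomorphic mutation of Zap70, a kinase that transmits signals from the T cell receptor (TCR). By the study's methods, both subsets were sorted as CD27+ cells, iNKT1 as CD122+ and iNKT2 as CD122-, and open chromatin was mapped by ATAC-seq, where a transposase cuts DNA that is accessible and leaves an adapter at each insertion. The study asked how the strength of TCR signaling bears on the subsets. 

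iNKT cells carry a semi-invariant TCR that binds lipids presented by CD1d. The T-box factor T-bet, the product of Tbx21, directs the iNKT1 program, which overlaps with that of natural killer (NK) cells in its receptors, its cytotoxic granules and its main cytokine, interferon gamma. The iNKT2 program, under PLZF and GATA3, is closer to that of type 2 helper T cells. T-bet and its relative Eomesodermin, RUNX3 and ETS1 are transcription factors known to act at NK and type 1 effector genes, and each family binds a short DNA sequence that can be searched for.

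The sequence of 6 of the regions is shown as examples, which are not a cross-section of the set. Of these, 4 carried a T-box string, alone or with Runx or ETS strings, and 2 near transcription factor genes carried none of the 3. In the whole set, 18.6% of regions held the T-box string and 1.29% held all 3. Regions with only a Runx or only an ETS string are not shown. Each line gives the central 300 bases of a region on the plus strand of GRCm38 (RefSeq), the C57BL/6J reference and not the sequence of the BALB/c or SKG animals. Capitals mark matches to GGTGTGA (T-box), TGTGGTT (Runx) or CAGGAAG (ETS), read on the plus strand or as the reverse complement.
Serpinb1b region, chr13:33071970-33072269: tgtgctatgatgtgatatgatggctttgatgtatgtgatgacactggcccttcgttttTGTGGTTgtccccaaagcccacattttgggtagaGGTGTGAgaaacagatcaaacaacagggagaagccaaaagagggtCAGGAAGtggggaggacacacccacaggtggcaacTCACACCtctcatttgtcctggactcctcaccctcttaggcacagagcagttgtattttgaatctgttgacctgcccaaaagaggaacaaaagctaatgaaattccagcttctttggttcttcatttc
Cxcr3 region, chrX:101737338-101737637: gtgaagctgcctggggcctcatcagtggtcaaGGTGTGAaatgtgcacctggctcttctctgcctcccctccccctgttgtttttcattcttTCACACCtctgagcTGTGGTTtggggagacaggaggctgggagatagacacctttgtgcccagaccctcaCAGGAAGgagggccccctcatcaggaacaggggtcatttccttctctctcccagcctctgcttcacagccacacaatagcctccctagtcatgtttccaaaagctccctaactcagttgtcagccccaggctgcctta
Xcl1 region, chr1:164935688-164935987: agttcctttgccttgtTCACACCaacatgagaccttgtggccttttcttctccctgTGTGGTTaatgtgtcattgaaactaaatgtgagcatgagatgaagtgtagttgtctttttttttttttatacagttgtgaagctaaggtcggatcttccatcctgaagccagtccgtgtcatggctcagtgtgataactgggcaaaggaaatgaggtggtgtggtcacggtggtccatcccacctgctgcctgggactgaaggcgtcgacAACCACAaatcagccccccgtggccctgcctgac
Slamf7 region, chr1:171629279-171629578: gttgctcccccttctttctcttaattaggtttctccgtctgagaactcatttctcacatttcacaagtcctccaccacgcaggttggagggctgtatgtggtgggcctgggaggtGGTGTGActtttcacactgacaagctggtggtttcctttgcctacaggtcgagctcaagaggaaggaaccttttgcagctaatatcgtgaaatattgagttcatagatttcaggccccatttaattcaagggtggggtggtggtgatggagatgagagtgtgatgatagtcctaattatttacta
Hopx region, chr5:77144853-77145152: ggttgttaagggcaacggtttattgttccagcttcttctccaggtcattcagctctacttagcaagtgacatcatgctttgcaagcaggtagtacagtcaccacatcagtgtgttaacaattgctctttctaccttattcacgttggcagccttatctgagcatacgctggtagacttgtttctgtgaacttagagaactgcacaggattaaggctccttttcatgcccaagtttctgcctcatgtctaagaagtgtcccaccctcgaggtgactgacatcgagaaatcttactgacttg
Tbx21 region, chr11:97130322-97130621: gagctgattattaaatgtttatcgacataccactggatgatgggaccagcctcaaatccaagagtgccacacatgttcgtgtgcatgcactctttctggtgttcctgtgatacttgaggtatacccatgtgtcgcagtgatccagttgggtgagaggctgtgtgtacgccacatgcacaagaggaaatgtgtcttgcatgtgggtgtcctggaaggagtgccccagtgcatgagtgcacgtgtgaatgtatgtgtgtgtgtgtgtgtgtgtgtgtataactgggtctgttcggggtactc

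The Serpinb1b and Cxcr3 regions held all 3 kinds of string, and each held a pair of T-box strings on opposite strands. The Xcl1 region held a T-box string and a pair of Runx strings. The Slamf7 region held a T-box string only, and the Hopx and Tbx21 regions held no match in this window. Each region is named for the protein-coding gene with the nearest transcription start, which need not be the gene it acts on. A match of letters is a description and not evidence that a factor was bound.

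Library totals ran from 14988590 to 36342635 insertions. The iNKT1 libraries placed 3.61% to 3.77% of their insertions in the 2626 regions. Among the iNKT2 libraries, replicate 1 stood apart in both genotypes, with 0.743% in BALB/c against 0.401% and 0.392% in the other BALB/c libraries, and 0.561% in SKG against 0.332% and 0.315%. Without these 2 libraries the rule kept 3037 regions, among them 2572 of the 2626, and the results that rest on them are given both ways below. Sums over the transcription starts of marker genes gave 268 to 299 CPM for 5 iNKT1 markers in the iNKT1 libraries and 83.5 to 122 in the iNKT2 libraries. For 6 iNKT2 markers the sums were 209 to 257 and 215 to 289. They overlapped within BALB/c (209 and 228 against 215 to 224) but not within SKG (238 and 257 against 269 to 289). The 6 iNKT17 markers summed to 7.80 to 9.05 and 35.4 to 50.5, the 3 NK and innate lymphoid cell markers with a region at their start (Fcer1g, Gzma and Ncr1) to 23.5 to 24.3 and 0.827 to 3.88, and 8 housekeeping genes to 638 to 755 and 399 to 523. The part that such differences in makeup or scaling play in the ratios was not tested. In bulk cells, a region open in fewer cells and a region less open in each cell cannot be told apart.

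The regions were well open in iNKT1 cells and close to closed in iNKT2 cells. Their median level was 10.3 CPM in BALB/c iNKT1 and 10.4 in SKG iNKT1, against 0.849 in BALB/c iNKT2 and 0.697 in SKG iNKT2. The median ratio was 6.61 in BALB/c and 7.34 in SKG. A ratio of at least 8 in both genotypes was held by 686 regions (26.1%) and a ratio of at least 16 by 123 (4.68%). Both iNKT2 means were under 0.5 CPM in 787 regions (30.0%), whereas 505 regions (19.2%) kept 2 CPM or more in both iNKT2 groups. These last regions also held insertions in the iNKT2 libraries, at a lower level than in iNKT1.

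**Figure D1:**
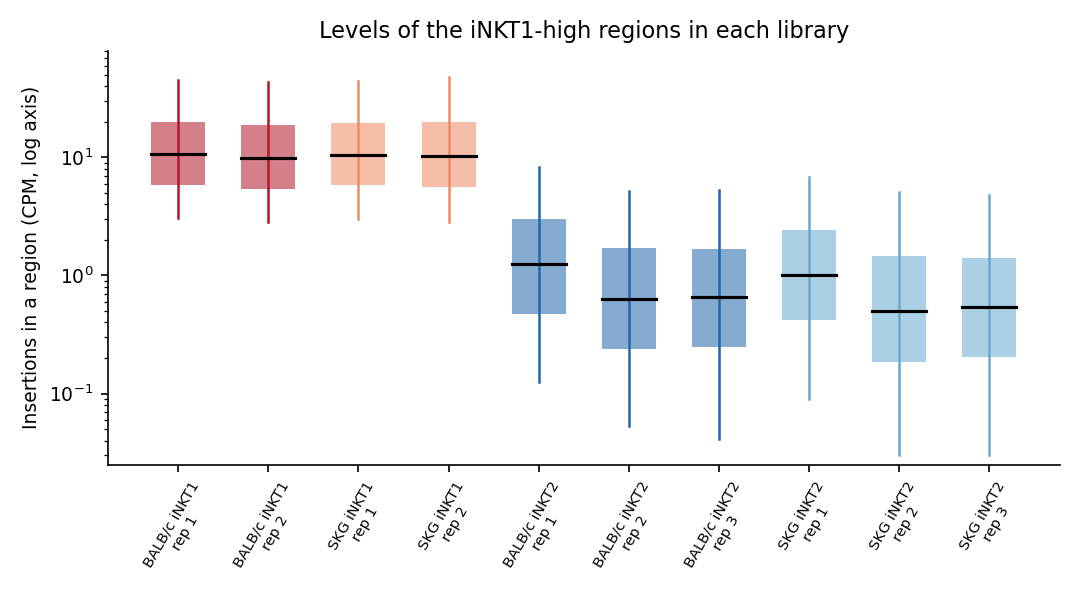
Levels of the 2626 regions in each of the 10 libraries, in CPM on a log axis. Boxes span the middle 50% of regions, black lines mark medians and vertical lines run from percentile 5 to percentile 95 (0 drawn at 0.03). The iNKT1 medians sit at 9.96 to 10.8 CPM and the iNKT2 medians at 0.505 to 1.25, with replicate 1 the highest in each iNKT2 group.

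The lists from single genotypes overlapped in part. The BALB/c condition alone kept 3566 regions, of which 73.6% passed in SKG as well, and the SKG condition alone kept 4351, of which 60.4% passed in BALB/c. Of the 940 regions that passed in BALB/c only, 82.9% still had an SKG ratio over 2 and 6 had one under 1. Of the 1725 that passed in SKG only, 85.8% had a BALB/c ratio over 2 and 15 had one under 1. The limit thus divided a continuum. Just inside it were regions near Nrp2, Gm20075 and Tmsb4x, with smaller ratios of 4.0015, 4.0020 and 4.0022, and just outside were regions near Snap47, Ado and Slc39a10, at 3.9977, 3.9973 and 3.9968. All 2626 were called higher in iNKT1 in BALB/c and SKG (edgeR, adjusted p under 0.01 and 4-fold), beside 6.36% and 6.96% of all regions. These calls are no test of the set, because the same contrasts and libraries chose its regions, and no conclusion is drawn from them.

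**Figure D2:**
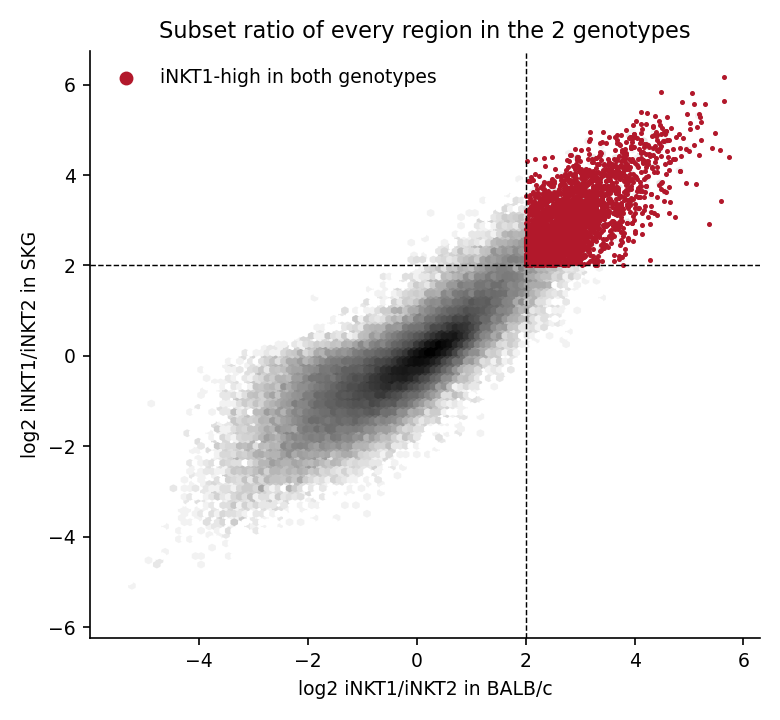
Log2 ratio of iNKT1 to iNKT2 means in BALB/c (x axis) and SKG (y axis), with 0.5 CPM added, for all 94823 regions in gray (darker where more regions fall) and for the 2626 iNKT1-high regions in red. Dashed lines mark the ratio of 4 that chose them, and no gap separates them from their neighbors.

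The regions lay mostly away from promoters. A protein-coding transcription start fell inside 57 of them (2.17%, Wilson 95% interval 1.68% to 2.80%), against 13.4% of all regions and 4.05% of the 2223 regions that were 4 times higher in iNKT2 in both genotypes (the same rule with the subsets exchanged). The center was in an intron in 49.8%, between genes in 45.3%, in a UTR in 2.86% and in coding sequence in 2.02%. The median distance to the nearest start was 19119 bp, against 10976 bp for all regions and 23362 bp for the iNKT2-high regions. Width and base composition were ordinary, with a median of 371 bp and 48.3% GC against 343 bp and 49.0% over all regions. The share of a chromosome's regions in the set ran from 1.40% on X to 3.77% on chromosome 6, which carries the NK gene complex.

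T-box, Runx and ETS strings were more frequent in these regions than over all regions, though the ETS string was at least as frequent in regions just outside the limit. The T-box string GGTGTGA occurred in the central 300 bases of 488 regions (18.6%, 17.1% to 20.1%), against 5.49% of all regions and 3.15% of iNKT2-high regions. For the longer AGGTGTGA, which contains it, the shares were 10.7%, 1.91% and 0.675%. The Runx string TGTGGTT was held by 25.5%, against 13.2% of all and 18.8% of iNKT2-high regions, and the shorter TGTGGT, which lies within it, by 55.3%, 30.3% and 37.4%. The ETS string CAGGAAG was held by 32.1%, against 22.7% and 21.5%. At least 1 of the 7-letter T-box, Runx and ETS strings was present in all but 39.2% of the regions, whereas 63.5% of all regions had none of them. All 26 strings were read on both strands, and intervals here are Wilson 95% intervals that cover counting error only.

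Tcf/Lef and NFAT strings and 1 of the ROR strings were less frequent here than in the iNKT2-high regions. The Tcf/Lef strings CTTTGAA and CTTTGAT were held by 5.52% and 4.91%, against 17.3% and 14.8% of iNKT2-high and 7.73% and 5.74% of all regions. The ROR string TAGGTCA was held by 3.54%, against 10.1% of iNKT2-high and 3.03% of all regions, but the other ROR string searched, AAGGTCA, by 6.02%, against 5.22% and 4.66%. The NFAT string TGGAAA was held by 19.1%, against 24.9% and 23.4%. Strings typical of promoters and insulators were scarce beside all regions, but not only in this set. GGGCGG (KLF/SP) was held by 6.74%, against 9.90% of iNKT2-high and 18.8% of all regions. The CTCF string AGGGGGCGC was held by 0.114%, against 0.180% and 1.40%. Among regions without a protein-coding start, GGGCGG was held by 6.38% of this set and 11.6% of all. The KLF string GGGTGTG, which can overlap the T-box string, was held by 16.1%, against 9.13% of all regions. The AP-1 string TGACTCA was held by 11.9%, against 7.59% of all regions. No set test was made on any of these shares.

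Above a ratio of 1, the T-box string was held by more regions the larger the ratio was. Bins were made of the smaller of both ratios over all regions with at least 2 CPM in both iNKT1 groups. The T-box string was held by 4.53% under 1/4, 3.92% between 1/4 and 1/2, 3.98% between 1/2 and 1, 5.16% between 1 and 2, 10.6% between 2 and 4, 16.2% between 4 and 8, 24.2% between 8 and 16 and 30.1% (22.7% to 38.7%, 37 of 123 regions) at 16 or more. Over the same bins the Runx string was held by 15.04%, 15.4%, 10.1%, 11.1%, 22.4%, 25.2%, 26.8% and 24.4%, so it was lowest between 1/2 and 2. The ETS string was held by 17.9%, 21.4%, 19.0%, 23.8%, 35.1%, 33.2%, 28.2% and 33.3%, with no rise beyond the bin 2 to 4, which lies outside the set. Within the set, regions with the T-box string had median ratios of 7.45 in BALB/c and 8.42 in SKG, against 6.44 and 7.15 without it. Their median iNKT1 levels were 11.2 and 10.3 CPM. The bins differed in other ways too. From the lowest to the highest, 14.1%, 11.3%, 19.7%, 33.4%, 4.68%, 2.06%, 2.49% and 2.44% of their regions held a protein-coding start. Their median iNKT1 levels were 4.17, 4.68, 6.12, 14.5, 8.66, 8.48, 13.8 and 23.2 CPM. The part that these differences play in the string shares was not tested.

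**Figure D3:**
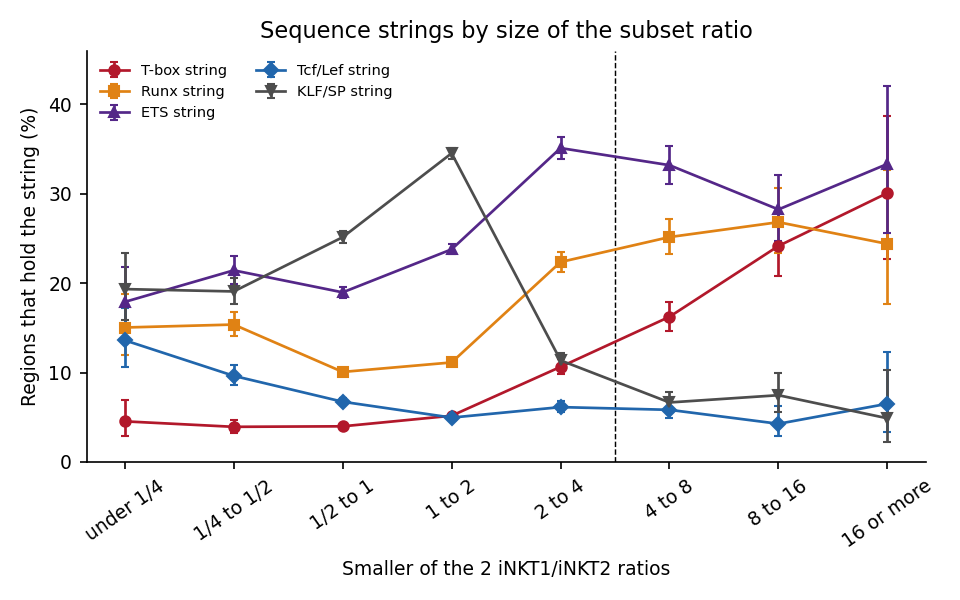
Percent of regions that hold a string in their central 300 bases (y axis) by the smaller of the BALB/c and SKG iNKT1/iNKT2 ratios (x axis), for regions with at least 2 CPM in both iNKT1 groups. Bars are Wilson 95% intervals and the dashed line marks the ratio of 4. The T-box string climbs from 3.98% to 30.1% between the bins 1/2 to 1 and 16 or more, while the KLF/SP string falls from 34.5% in the bin 1 to 2 to 4.88%.

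The strings also sat at the centers of the regions. Within 50 bp of the center, the T-box string occurred 3.12 times per 100 regions in each 25-bp bin, against 0.490 times at 300 bp or more from it, a ratio of 6.37. For all regions this ratio was 1.76, and for iNKT2-high regions 0.662. The Runx string was centered in all of them, with ratios of 6.22 in iNKT1-high, 4.18 in iNKT2-high and 3.03 in all regions. For the ETS string they were 4.28, 2.77 and 3.30.

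**Figure D4:**
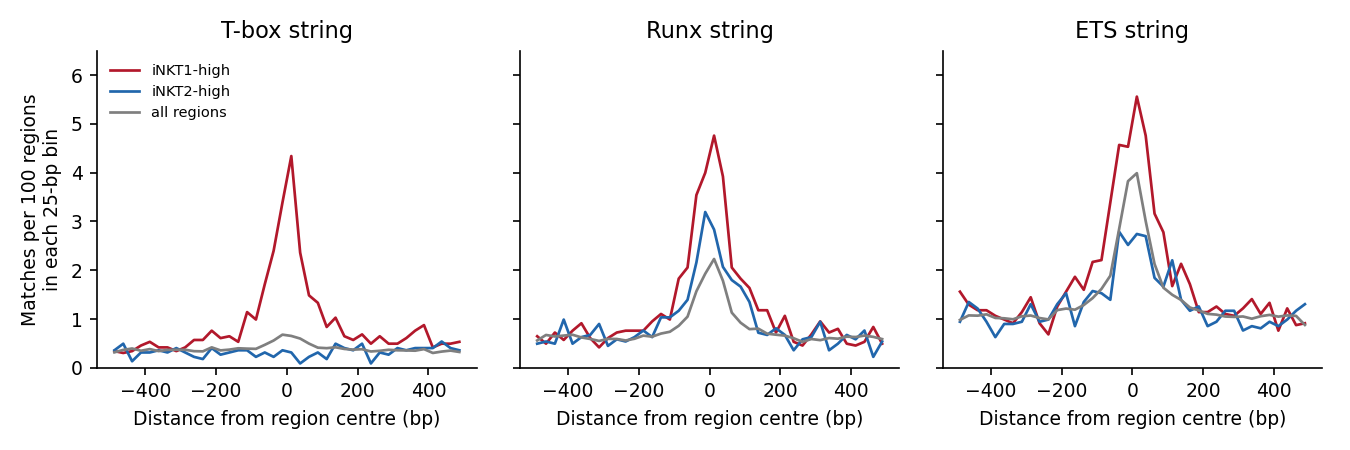
Matches to the T-box, Runx and ETS strings per 100 regions in 25-bp bins (y axis) by distance from the region center in bp (x axis), for iNKT1-high regions (red), iNKT2-high regions (blue) and all regions (gray). The T-box string peaks at the center of the iNKT1-high regions and shows no peak in the iNKT2-high regions.

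Among transcription factors of the type 1 program, 64 of 619 regions (10.3%) belonged to the set, beside 2.77% of all regions, and 16 of 18 genes had at least 1. Stat4, which transmits interleukin 12 signals, had an intronic region at 63.6 and 62.2 CPM in BALB/c iNKT1 and 46.8 and 47.6 in SKG iNKT1, against 5.71, 1.01 and 1.61 in BALB/c iNKT2 and 2.79, 1.06 and 1.28 in SKG iNKT2. A region 29882 bp upstream of Hopx, a homeodomain cofactor of effector T cells, stood at 53.4 and 57.0 CPM in BALB/c iNKT1 and 46.4 and 51.4 in SKG iNKT1, against 3.95, 2.25 and 1.98 and then 1.66, 0.689 and 0.405 in the iNKT2 groups. No iNKT2 library came near an iNKT1 library in either region, as the rule would make likely. Replicate 1 was the highest within each iNKT2 group. Of the 11 Hopx regions, 9 were in the set, and of the 20 regions of Tbx21, the gene of T-bet, 10 were. The highest Tbx21 region, 15141 bp upstream, read 26.2 and 23.5 CPM in BALB/c iNKT1, 14.3 and 15.7 in SKG iNKT1, 5.05, 2.14 and 1.53 in BALB/c iNKT2 and 3.51, 1.29 and 1.89 in SKG iNKT2. Bhlhe40, Irf8, Klf3 and Txk, a kinase gene that the list also holds, had regions with ratios between 5.66 and 20.6.

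Cytokine and cytotoxicity genes held a larger share, 56 of 241 regions (23.2%) at 12 of 18 genes. The promoter region of Ifng, the gene of interferon gamma, read 61.3 and 61.4 CPM in BALB/c iNKT1 and 73.8 and 71.4 in SKG iNKT1, against 11.5, 7.46 and 7.21 in BALB/c iNKT2 and 9.96, 8.68 and 6.94 in SKG iNKT2. Its ratios, 6.71 and 8.10, were near the median of the set, and the iNKT2 libraries still held insertions at the Ifng promoter. Whether these came from iNKT2 cells or from other cells in the sort was not tested. The start of Gzmb, which encodes granzyme B, read 62.8 and 58.5, then 75.1 and 83.8 CPM in iNKT1, against 4.86, 3.39 and 3.01, then 8.17, 5.33 and 2.56 in iNKT2. The start of Prf1, which encodes the pore-forming perforin, read 50.3 and 43.4, then 54.4 and 59.6, against 6.30, 2.62 and 2.47, then 7.79, 6.25 and 4.58. At both starts every iNKT1 library lay well above every iNKT2 library, as the rule would make likely. Xcl1, a chemokine gene, had a promoter region with ratios of 13.5 and 10.4, and Nkg7, a cytotoxic granule gene, one with ratios of 24.3 and 27.4. Tnfsf10, which encodes TRAIL, had an intronic region at 72.6 to 79.6 CPM in iNKT1 and 5.26 to 15.8 in iNKT2.

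NK receptor genes held 55 of 184 regions (29.9%) at 15 of 20 genes. A region 7045 bp upstream of Klri2 was among the highest of the whole set, with 116 and 133 CPM in BALB/c iNKT1 and 108 and 128 in SKG iNKT1, against 16.8, 7.64 and 6.72 in BALB/c iNKT2 and 8.86, 5.05 and 3.57 in SKG iNKT2. A region 19498 bp downstream of the start of Slamf7, a SLAM family receptor of NK cells, had 81.2 to 95.5 CPM in iNKT1 and 3.57 to 11.7 in iNKT2. The start of Klrd1, which encodes CD94, had ratios of 7.37 and 10.0. Regions near Klrk1 (NKG2D), Klra5 and Cd226 had ratios between 5.21 and 12.2. Many genes of this family are near copies of each other, and only uniquely mapped reads were kept, so levels at single Klr genes are uncertain.

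Cytokine receptor genes held 40 of 389 regions (10.3%) at 9 of 20 genes. The start of Il12rb2, a chain of the interleukin 12 receptor, read 75.3 and 79.2 CPM in BALB/c iNKT1 and 93.0 and 92.6 in SKG iNKT1, against 11.1, 6.75 and 5.24 and then 14.6, 8.40 and 9.98 in iNKT2. Ifngr1, a chain of the interferon gamma receptor, had more members than any other gene, 14 of its 33 regions, all with ratios between 4.04 and 14.3. Il2rb encodes CD122, on which the cells were sorted, so its regions touch the gene used for the sort. Its highest region had ratios of 8.18 and 6.73. Tgfbr2, Il21r and Jak1, a kinase gene that the list also holds, had regions with ratios between 4.67 and 15.4.

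Genes of trafficking and adhesion held 29 of 362 regions (8.01%) at 11 of 20 genes. The region 3219 bp upstream of Cxcr3, a chemokine receptor of type 1 cells, had 45.7 to 53.6 CPM in iNKT1 and 2.36 to 7.28 in iNKT2. Integrin regions near Itgb1 and Itga1 had ratios between 9.27 and 19.9. An intronic region of Cd44, which encodes a hyaluronan receptor, had ratios of 4.56 and 4.97.

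Survival genes held 14 of 149 regions (9.40%), of which 8 belonged to Bcl2 and 5 to Bcl2l11, which encodes the pro-apoptotic BIM. Genes of TCR signaling and its inhibition were closer to the background of 2.77%, with 20 of 503 regions (3.98%) at 11 of 22 genes. Among them were a region 8814 bp upstream of Cd5 at 69.9 to 77.2 CPM in iNKT1 and 4.50 to 16.7 in iNKT2, and intronic regions of Cd6 and Lck with ratios between 4.58 and 9.52. Prkcq, Dusp2 and Fyn had regions with ratios between 4.46 and 7.25. The iNKT2 program held 4 of 607 regions (0.659%) and the iNKT17 program 2 of 176 (1.14%). The 4 were near Il4, Ccr7, Satb1 and Gata3 and the 2 near Il23r and Maf, named here after their values were seen. The Gata3 region, in an intron, read 16.1 to 18.4 CPM in iNKT1 and 0.674 to 2.51 in iNKT2, so a gene characteristic of iNKT2 cells also carried an iNKT1-high region.

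**Figure D5:**
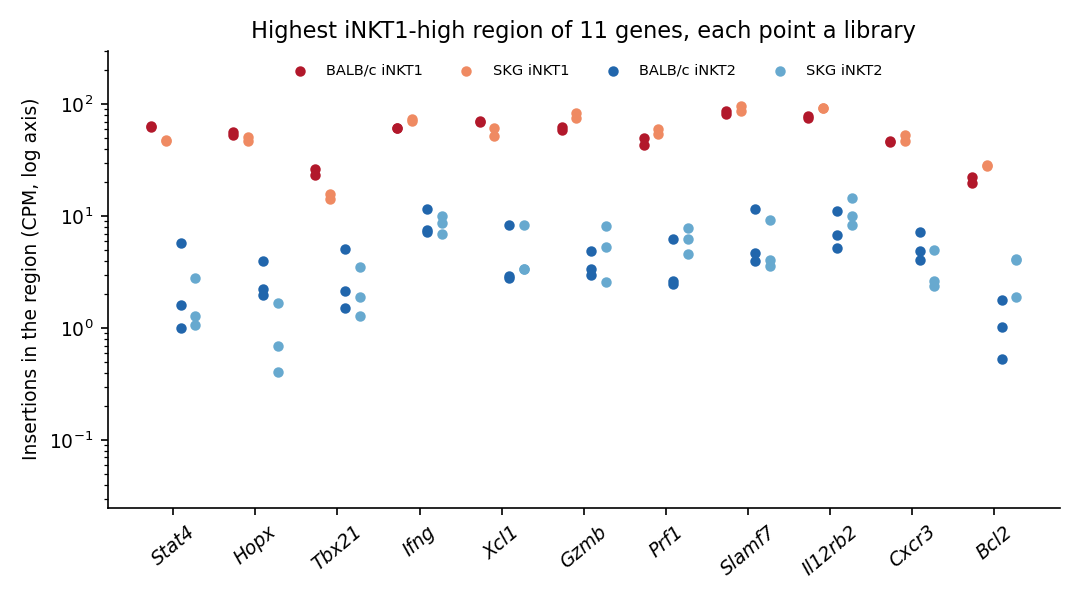
Level in CPM (log axis) of the highest iNKT1-high region of 11 genes, with 1 point per library and color for the group. At each gene all iNKT1 libraries lie above all iNKT2 libraries, as the rule would make likely, and the depth of the iNKT2 levels differs between genes, from near 10 CPM at Ifng to under 4 at Hopx.

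Some of the regions came in groups along the chromosomes, though most stood alone. When regions of the set less than 12.5 kb apart were chained, they formed 1853 groups, of which 1410 were single regions and 66 held 4 or more, 370 regions in all. The median gap to the nearest other was 18.4 kb, against 59.0 kb for the 2223 iNKT2-high regions, which are fewer. How close equally many regions taken from all regions would lie was not tested. The largest group, 24 of the 28 regions in chr6:129577817-129640817, covered the NK receptor genes Klrd1, Klrk1 and Klre1, and its regions summed to 333 and 371 CPM in BALB/c and SKG iNKT1 against 27.8 and 28.7 in iNKT2. At Tbx21, 14 of 27 regions in chr11:97103172-97146281 belonged to the set, summing to 194 and 152 against 16.9 and 17.6 CPM. At Slamf7 the count was 12 of 15 regions, at Il2rb 12 of 19 and at Nkg7 9 of 12. By gene, the most regions were at Ifngr1 (14), Pik3ap1 (13) and then Slamf7, Ifng, Runx3 and Prex1 (11 each), followed by genes with 10 each, among them Klrd1, Cmklr1, Gas7 and Tbx21. Pik3ap1 encodes a phosphoinositide 3-kinase adaptor and Cmklr1 a chemoattractant receptor of NK cells.

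The regions of highest level and of largest ratio were different ones. Among the highest by level were regions near Klri2, Nrp2, Cep85l and Moxd2, with iNKT1 libraries between 96.0 and 140 CPM. By the smaller of the BALB/c and SKG ratios, the largest were at an intronic region of Nav2, 49.7 and 71.5, and at a region 6455 bp upstream of Serpinb1b, a serine protease inhibitor gene, 50.0 and 49.5. The Serpinb1b region, whose sequence held 4 of the strings, read 76.2 to 91.4 CPM in iNKT1 and 2.16, 0.608 and 0.536, then 2.82, 0.321 and 0.674 CPM in iNKT2. Regions near Smndc1, Vrk1 and Ttll11 had ratios between 36.5 and 47.5. Among the 57 regions that held a transcription start, the highest were those of Il12rb2, Nkg7, Gzmb, Dop1b and Ifng.

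Whether the Zap70 mutation changed these regions was asked within each subset, which the rule did not compare, although it used the same libraries and its limits on all 4 means restrict how far a region can differ. Changes are log2 of SKG over BALB/c from the edgeR fit over all 94823 regions, given with their SE, and p-values are Benjamini-Hochberg adjusted over all of them. In iNKT1 cells most of the regions had similar levels in both genotypes. The median change was 0.05 (all regions -0.03), and SKG iNKT1 means lay within 1.5-fold of BALB/c in 78.3% of regions. At an adjusted p under 0.01 and 4-fold, 3 regions were higher in SKG iNKT1 and 8 lower (0.114% and 0.305%), beside 0.281% and 0.732% of all regions. At the adjusted p alone, 20 were higher and 22 lower (0.762% and 0.838%), beside 0.662% and 1.42%. The counts at the adjusted p alone moved with the iNKT2 libraries in the fit, and the cause was not tested: in a fit of the iNKT1 libraries only they were 294 and 219, and without the iNKT2 libraries numbered 1, 231 and 196, while the counts past 4-fold stayed at 3 and 8. The share of all regions called in these other fits was not counted, so a shift over all regions cannot be told from one in the set.

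By adjusted p, the regions that differed most clearly between the iNKT1 groups lay near genes with varied roles. An intronic region of Suclg2, a mitochondrial succinyl-CoA ligase gene, read 21.7 and 21.3 CPM in BALB/c iNKT1 and 62.8 and 63.1 in SKG iNKT1, a change of 1.55 ± 0.21 (SE, adjusted p = 0.000418). Intronic regions of Pkp4 and Slc9a9 rose by 1.81 ± 0.22 and 1.41 ± 0.23 and a region nearest to Setbp1 by 2.22 ± 0.32. Of the 4 with the smallest adjusted p among those that fell, 3 lay within chr5:36800000-37200000. A region 9667 bp upstream of Man2b2, a mannosidase gene, read 36.6 and 36.8 CPM in BALB/c iNKT1 and 5.65 and 6.80 in SKG iNKT1, a change of -2.56 ± 0.33 (adjusted p = 0.000356), with iNKT2 libraries at 0.0794 to 0.627. A neighbor 9077 bp upstream changed by -2.59 ± 0.34 and an intronic region of Ppp2r2c, a phosphatase subunit gene, by -2.82 ± 0.42. Over that interval, taken after the values were seen, 8 of 58 regions were lower in SKG iNKT1 and 0 higher at the adjusted p, and all 3 regions of the set within it were among the 8. The last of the 4, 102590 bp upstream of Ctnnb1, changed by -2.17 ± 0.32. These calls rest on few libraries. Without any 1 of the 4 iNKT1 libraries, the adjusted p was 0.0111 to 0.0196 at Suclg2, 0.0127 to 0.0249 at Setbp1, 0.0202 to 0.0437 at Slc9a9 and 0.0106 to 0.0338 at Ctnnb1, all above 0.01. Of these 4 fits, the Man2b2 and Ppp2r2c regions passed only in that without BALB/c replicate 2, with 0.0116 to 0.0317 without each of the other 3, and the first Man2b2 region had 0.0245 with DESeq2. The Pkp4 region missed the limit without BALB/c replicate 1 only (0.0113). All these changes kept their direction.

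In iNKT2 cells, where the regions were near closed, more of them differed between genotypes, and the count rests on few insertions. Their median change was -0.14 (all regions 0.01). At an adjusted p under 0.01 and 4-fold, 14 were higher in SKG iNKT2 and 53 lower (0.533% and 2.02%), beside 0.252% and 4.73% of all regions. At the adjusted p alone, 76 were higher and 150 lower (2.89% and 5.71%), beside 4.02% and 10.1%. Without the 2 iNKT2 libraries numbered 1 the counts past 4-fold were 25 and 133, without BALB/c replicate 1 alone 42 and 25, and without SKG replicate 1 alone 6 and 165. The median change was 0.25 without BALB/c replicate 1 (all regions 0.004) and -0.61 without SKG replicate 1 (all regions -0.04), so its direction turned with a single library. It turned with the scaling too: after quantile normalization (limma voom) 68 were higher and 18 lower past 4-fold, and the median change was 0.49 (all regions 0.10). The share of all regions called was not counted in these other fits.

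Single regions, named for the smallest adjusted p in this contrast, stood apart in all iNKT2 libraries. A region nearest to Capza3 read 5.05, 3.81 and 4.91 CPM in BALB/c iNKT2 and 0.535, 0.184 and 0.405 in SKG iNKT2, a change of -3.53 ± 0.28 (adjusted p = 6.67e-07), while the iNKT1 libraries read 22.1 and 22.8, then 19.0 and 16.1. A region 71910 bp upstream of Rbpj, which encodes the nuclear effector of Notch signaling, read 13.4, 8.17 and 8.99 and then 2.50, 1.56 and 2.36 CPM, a change of -2.24 ± 0.21. The region nearest to Gm11114 changed by -1.95 ± 0.19. In the opposite direction, a region nearest to Nfe2l3 read 1.51, 1.75 and 1.53 CPM in BALB/c iNKT2 and 6.12, 6.80 and 4.58 in SKG iNKT2, a change of 1.88 ± 0.17 (adjusted p = 2.55e-06). Regions of Slc30a7, Gramd4 and Ddx31 rose by 1.94 ± 0.18, 2.57 ± 0.25 and 2.21 ± 0.22. In none of these regions did the BALB/c and SKG iNKT2 libraries overlap, which their choice by adjusted p makes likely. The share of all regions without such overlap was not counted. Each named region kept its call in the other fits that tested it and without each single iNKT2 library.

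All 4 regions of the set at Spry2, which encodes an inhibitor of receptor signaling through Ras, were lower in SKG in both subsets at the adjusted p. In iNKT1 they changed by -1.52 to -2.23 and in iNKT2 by -2.24 to -4.52. The region 9650 bp downstream of the start read 13.7 and 13.6 CPM in BALB/c iNKT1, 3.40 and 3.27 in SKG iNKT1, 3.83, 1.93 and 2.89 in BALB/c iNKT2 and 0.386, 0.276 and 0.0674 in SKG iNKT2, changes of -2.03 ± 0.32 (adjusted p = 0.00144) and -3.34 ± 0.37 (adjusted p = 1.25e-05). The 4 calls in iNKT1 were made in 4 to 6 of 10 fits without a single library, and those in iNKT2 in 9 or 10 of 10. In all, 14 regions (0.533%) were lower in SKG in both subsets and 8 (0.305%) higher in both at the adjusted p, beside 0.847% and 0.19% of all regions. A single region (0.0381%), nearest to Mad2l1, was higher in iNKT1 and lower in iNKT2, beside 0.0285%. Besides those at Spry2, the lower group included regions near Pdcd1, which encodes the inhibitory receptor PD-1, Cd38, Txk and Gadd45g, and the higher group regions near Bcl2 and Csf2. These genes, and those of the next paragraph, were singled out after their values were seen.

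Within the gene lists, calls in iNKT2 at the adjusted p were 2 higher and 8 lower of 64 regions for transcription factors, 1 and 4 of 56 for cytokine and cytotoxicity genes, 1 and 2 of 55 for NK receptors, 4 and 0 of 40 for cytokine receptors, 0 and 1 of 29 for trafficking, 3 and 0 of 14 for survival and 0 and 1 of 20 for TCR signaling. Over the 7 lists this made 11 higher (3.96%) and 16 lower (5.76%) of 278 regions, beside 4.02% and 10.1% of all regions, and the 8 of 64 transcription factor regions (12.5%) were near the latter share. Of the 8 regions of the transcription factor list that fell, 4 were at Hopx, and all 9 Hopx regions had a negative estimate. A region of the kinase gene Txk was also among the 8. The highest of them, given above, changed by -1.40 (adjusted p = 0.00727), and this call was made in 1 of 7 other fits, and in 2 of 10 fits without a single library. The Hopx region with the smallest adjusted p changed by -2.12 (adjusted p = 0.00127), a call made in 5 of 7 other fits and in 10 of 10 fits without a single library. All 8 Bcl2 regions had a positive estimate and 3 rose. The highest, in an intron, read 1.79, 0.529 and 1.03 CPM in BALB/c iNKT2 and 4.16, 4.09 and 1.89 in SKG iNKT2, a change of 1.66 (adjusted p = 0.00230), with iNKT1 libraries at 22.5 and 19.7, then 28.7 and 27.9. Of the 4 cytokine receptor regions that rose, 2 were at Ifngr1, by 0.85 and 0.82. In iNKT1, the lists held 3 calls in all, 1 lower at Txk, 1 lower at Pdcd1 and 1 higher at Bcl2. That made 0.360% higher and 0.719% lower of the 278 regions, beside 0.662% and 1.42% of all regions. The median changes of these 7 lists in iNKT1 ran from -0.28 (TCR signaling) to 0.08 (NK receptors), beside -0.03 for all regions.

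Whether the genotype change differed between the subsets was tested by the interaction. At an adjusted p under 0.01 and 4-fold it was more positive in iNKT2 at 1 region and more negative at 7 (0.0381% and 0.267%), beside 0.189% and 0.341% of all regions. At the adjusted p alone the counts were 2 and 10, beside 0.446% and 0.479%. With the replicate number as a block the counts past 4-fold were 5 and 46, and without the 2 iNKT2 libraries numbered 1 they were 13 and 80, fits in which the share of all regions was not counted. For most of the regions called in 1 subset only, a difference between the subsets was therefore not shown.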

How the data were processed

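ATAC-seq insertions were analysed in 10 libraries, grouped by their titles into 4 groups. The methods state that bowtie mapped the reads to mm10 (uniquely mapping reads only), that mitochondrial reads and duplicates were discarded, and that MACS2 summits of short fragments, found in each replicate, were widened and merged over all replicates, without chromosome Y or blacklisted parts, before the authors counted insertions. The deposited table is named as normalized but holds whole-number counts of insertions per region and library, with differing totals (14988590 to 36342635, medians of 40 to 120 per region). These totals lie inside regions and are not full depth. No column went unused. Summits were expanded to a width larger than many deposited regions (smallest 300 bp), and the reason is not given in the sources used here. Nothing in the labels says that replicates are separate animals, so p-values measure the spread between these libraries, which may be technical.

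R 4.3.3 and edgeR 4.0.16 were used to fit the counts (TMM scaling over all regions, 1 mean per group, 10 libraries together, no filter, so all 2626 regions were tested), with quasi-likelihood F tests of the genotypes within each subset and of the interaction. Regions were called at an adjusted p under 0.01 and 4-fold. limma 3.58.1 and DESeq2 1.42.0 served as alternatives. Features came from GENCODE M21 on GRCm38, with 1-based coordinates, and strings were searched in the central 300 bases. The test was checked on simulated data. Replicate numbers were checked for pairing by correlating deviations from group means: iNKT2 pairs with equal numbers had r = 0.492, 0.165 and 0.202, each over 0.1, so they were treated as pairs in an alternative fit. Different numbers gave up to 0.278. The alternative fit also paired iNKT1 libraries by number, although equal numbers gave r = -0.00599 there.

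The regions, gene lists, strings and tests were chosen with earlier results of these data known. Regions were named by rule: the 5 of highest level and the 5 of largest ratio, the 10 genes with most regions, the highest region of up to 6 genes in each list, the 4 of smallest adjusted p in each direction of each test, the 5 highest at transcription starts and the 3 on each side of the limit. Exceptions are stated where they occur, and some named regions are not reported here.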

Additional observations from a re-analysis of the deposited data

Results flagged for a closer look

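By the interaction in edgeR, the genotype change differed past 4-fold between the subsets at few regions. It was more positive in iNKT2 at 1 region and more negative at 7 (0.0381% and 0.267%), beside 0.189% and 0.341% of all regions. A region nearest to Spdye4c had 10.7 to 13.5 CPM in all iNKT1 libraries but 0.596, 0.503 and 0.412 in BALB/c iNKT2 against 2.29, 2.53 and 2.23 in SKG iNKT2 (log2 interaction 2.49 ± 0.30 SE, adjusted p = 0.000777). A region 14269 bp upstream of Ifngr1 gave 1.31 ± 0.24 (adjusted p = 0.00717), with 48.2 and 57.0 CPM in BALB/c iNKT1, 29.7 and 31.4 in SKG iNKT1, 4.86, 5.53 and 4.62 in BALB/c iNKT2 and 8.23, 7.58 and 5.73 in SKG iNKT2. It was lower in SKG in iNKT1 libraries and higher in iNKT2 libraries, though neither change alone passed an adjusted p of 0.01. This interaction had an adjusted p of 0.0227 with library totals, 0.0117 with the low-count filter and 0.0138 to 0.0668 without 7 of the 10 single libraries. The interaction was -3.17 ± 0.37 at the region nearest to Capza3 and -2.21 ± 0.26 at that nearest to Gm11114, both of which were lower in SKG iNKT2 only. At the region nearest to Mad2l1 it was -2.89 ± 0.37, with 8.84 and 7.36 CPM in BALB/c iNKT1, 19.0 and 21.2 in SKG iNKT1, 2.04, 1.27 and 1.57 in BALB/c iNKT2 and 0.624, 0.367 and 0.607 in SKG iNKT2. At the region 15874 bp upstream of Rbbp8nl it was -3.10 ± 0.45, with 3.83, 2.22 and 2.14 against 0.357, 0.184 and 0.607 CPM in iNKT2. With quantile voom the adjusted p was 0.0123 at Mad2l1 and 0.0134 at Rbbp8nl. Without single iNKT1 libraries it was 0.0163 to 0.0210 at Rbbp8nl (each of the 4), 0.0102 and 0.0138 at Mad2l1 (SKG replicate 2 and BALB/c replicate 2), 0.0108 at Spdye4c (SKG replicate 1) and 0.0111 at Gm11114 (BALB/c replicate 2), all above 0.01.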

How the results depend on the processing

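The number of regions was 973 with 2 CPM added to the means, 8288 at a ratio of 2 and 686 at a ratio of 8, and stayed within 1.5 times of 2626 with 0.1 CPM added, other limits of level, library totals, DESeq2 factors, quantile scaling, the low-count filter and without each library (2334 to 2899). Counts of genotype calls, higher then lower, moved more. In iNKT1 (3 and 8) they were 46 and 48 at an adjusted p under 0.05 and 2-fold, 20 and 22 at the adjusted p alone, 1 higher with library totals, 1 and 4 with quantile voom, and 0 to 3 and 0 to 8 without single libraries, where the lone library left in a group was assumed to vary like the others. In iNKT2 (14 and 53) they were 113 and 233 at the looser limits, 76 and 150 at the adjusted p alone, 9 higher with library totals and with the low-count filter, 6 and 27 with iNKT2 libraries only, 9 and 22 with voom, 68 and 18 with quantile voom, 6 to 42 and 25 to 165 without single libraries and 25 and 133 without both libraries numbered 1, an alternative chosen after seeing the data. The median change in iNKT2 was 0.49 with quantile voom (all regions 0.10) and -0.61 to 0.25 without single libraries (all regions -0.04 to 0.02). Beyond those given above, shares of all regions called under these alternatives were not counted. In the interaction (1 and 7) the counts were 18 and 41 at the looser limits, 2 higher at the adjusted p alone, 3 and 2 with quantile voom, 3 and 24 with DESeq2, 0 to 12 and 1 to 54 without single libraries and 13 and 80 without both libraries numbered 1. With the replicate block, which pairs libraries of equal number within each subset, they were 5 and 46, and the block moved no other count past 4-fold by more than 1.5 times. For the regions named for the smallest adjusted p in a test, 344 of the values under these alternatives kept their call, 46 kept their direction but not the adjusted p, and 0 reversed. Regions named for other reasons, such as those at Hopx and Bcl2, are not in these counts. The share with a transcription start was 5.94% within 1 kb and 4.07% with all genes. Over whole regions the T-box, Runx and ETS shares were 22.0%, 29.4% and 37.2%, with the other strings 10.7%, 55.3% and 6.25%, and at a ratio of 8 the T-box and ETS shares were 25.2% and 29.2%. Except where the setting itself changes the limit or the libraries, the cause was not tested. The low iNKT2 counts, a median of 8 to 40 insertions per region and library, limit what can be said of genotype there.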
